A study of Mus musculus with 48 samples.

Results

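The mRNA of 10 acute phase proteins was followed through a mouse model in which liver spheroids live in the eye. The genes are the serum amyloid A family (Saa1, Saa2, Saa3 and Saa4), the orosomucoids (Orm1 and Orm2), haptoglobin (Hp), lipocalin 2 (Lcn2), serum amyloid P component (Apcs) and the lipopolysaccharide-binding protein (Lbp). They were chosen by name from 46517 genes counted in the deposited tables, and each was matched by its symbol. RNA came from 5 explants, 3 livers, 3 hepatocyte-enriched preparations, 3 naïve irises and 2 samples of spheroids kept in vitro, with 3 technical libraries for each of these 16 samples. The labels give all groups as wild type albino mice of strain C57BL/6N, and the study's methods describe adult animals of both sexes. Spheroids were grown from hepatocyte-enriched cells, obtained by perfusing donor livers with collagenase, in a medium that contains dexamethasone. They were then placed in the anterior chamber of the eye. An explant consists of such engrafted spheroids together with the recipient iris around them, removed 2 months post-tx, and may hold several spheroids. The labels number the explants 1, 2, 4, 5 and 6. They do not say which samples come from separate animals, so each p-value measures only the spread between these samples, which may be technical.

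The acute phase response is the change in plasma proteins that follows infection or injury, and the hepatocyte makes most of these proteins. Interleukin 6 acts through STAT3, and interleukin 1 and tumor necrosis factor act through NF-kappa-B, together with factors of the C/EBP family and with glucocorticoids. Saa1, Saa2, Orm1, Orm2, Lcn2 and Apcs are strongly inducible in the mouse liver, whereas Saa4 is made constitutively and Hp is abundant at rest. Saa3 and Lcn2 are also made outside the liver, by macrophages, fat or epithelia, and Lcn2 is a protein of neutrophil granules.

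The Saa genes lie side by side on chromosome 7 (GRCm38, as in the deposited counts). Saa3 spans 46711998 to 46715676, Saa4 46728017 to 46732543 and Saa1 46740501 to 46742980, all on the minus strand, and Saa2 spans 46751833 to 46754314 on the plus strand. Orm1 (63344560 to 63348163) and Orm2 (63362449 to 63365878) are neighbours on the plus strand of chromosome 4. Hp lies on chromosome 8 (109575130 to 109579172, minus strand), Apcs on chromosome 1 (172893961 to 172895041, minus strand) and Lcn2 and Lbp on chromosome 2 (32384633 to 32388252, minus strand, and 158306493 to 158332852, plus strand). No exon of another gene overlaps an exon of these 10.

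The promoters of 4 members are printed because Saa1 and Saa2 had log2 fold changes of the same sign in each comparison below, while Saa4 and Lcn2 differed from them in at least 1 comparison. The windows are RefSeq sequences of build GRCm38.p6, 300 bases each, from 250 bases before the start site to 50 after it, read 5′ to 3′ on the strand of the gene. Capitals mark matches to the C/EBP letters TTGCNNAA on either strand. The windows lie at chr7:46742931-46743230 (minus) for Saa1, chr7:46751583-46751882 (plus) for Saa2, chr7:46732554-46732853 (minus) for Saa4 and chr2:32387690-32387989 (minus) for Lcn2.
Saa1: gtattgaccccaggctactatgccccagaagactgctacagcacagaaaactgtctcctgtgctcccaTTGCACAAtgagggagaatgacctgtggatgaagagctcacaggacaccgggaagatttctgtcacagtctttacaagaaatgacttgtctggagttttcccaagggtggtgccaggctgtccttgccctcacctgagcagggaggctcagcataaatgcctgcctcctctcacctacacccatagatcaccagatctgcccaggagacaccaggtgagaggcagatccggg
Saa2: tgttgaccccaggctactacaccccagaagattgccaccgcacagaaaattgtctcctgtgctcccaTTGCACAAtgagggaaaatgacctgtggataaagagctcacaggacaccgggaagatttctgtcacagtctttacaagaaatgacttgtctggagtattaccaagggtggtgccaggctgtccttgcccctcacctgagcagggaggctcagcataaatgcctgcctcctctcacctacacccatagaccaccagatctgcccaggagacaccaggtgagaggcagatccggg
Saa4: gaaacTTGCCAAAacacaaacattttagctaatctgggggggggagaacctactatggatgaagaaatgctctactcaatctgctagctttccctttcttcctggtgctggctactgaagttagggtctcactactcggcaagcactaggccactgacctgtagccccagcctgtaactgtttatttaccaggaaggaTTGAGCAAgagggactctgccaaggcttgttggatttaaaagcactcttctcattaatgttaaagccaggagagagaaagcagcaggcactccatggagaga
Lcn2: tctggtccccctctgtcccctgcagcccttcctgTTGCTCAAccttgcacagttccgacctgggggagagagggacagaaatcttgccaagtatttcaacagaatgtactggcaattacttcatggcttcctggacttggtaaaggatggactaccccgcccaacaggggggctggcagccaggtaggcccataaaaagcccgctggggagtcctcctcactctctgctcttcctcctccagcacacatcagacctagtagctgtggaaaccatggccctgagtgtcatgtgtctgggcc

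The Saa1 and Saa2 windows were 95.35% identical, 287 of 301 alignment columns, and hold the same match at 182 and 183 bases before the start site. Saa4 holds different matches, at 245 and 52 bases before its RefSeq start site. The whole Saa4 window lies outside the gene as counted, which ends at 46732543. RefSeq windows were at hand for 7 of the 10 members, and Orm1, Hp and Lbp have none. Of the 7, 6 contain TTGCNNAA, a motif found in 10.8% of 32851 promoter windows, and Apcs is the one without it. Apcs alone contains the STAT letters TTCNNNGAA, which 8.3% of all windows contain. None of the 7 contains the NF-kappa-B motif, found in 5.56% of windows. No 2 motif matches overlap. These are matches of letters in a short window and say nothing of binding.

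Total counts per sample were 2718518 to 3573075 in hepatocyte preparations, 3247327 to 3447643 in spheroids, 3523171 to 3871404 in livers, 4596550 to 4881817 in irises and 5449589 to 6789648 in explants. Summed hepatocyte markers (12 genes) were 10080 to 11912 TPM (transcript abundance scaled to gene length and depth) in livers, 10655 to 12166 in hepatocyte preparations, 4900 to 6153 in spheroids, 1506 to 3433 in explants and 362 to 408 in irises. Summed macrophage markers (10 genes) were lowest in hepatocyte preparations, at 147 to 250 TPM, and highest in explants, at 951 to 2889, with 527 to 1122 in livers, 492 to 613 in spheroids and 681 to 717 in irises. Summed neutrophil markers (10 genes) were 26.3 to 40.9 TPM in livers, 1.59 to 11.2 in hepatocyte preparations, 5.55 to 19.2 in explants, 4.36 to 5.43 in irises and 0.446 to 0.499 in spheroids. Iris and ciliary markers (10 genes) summed to 9542 to 10033 TPM in irises, 6916 to 8936 in explants and 476 to 752 in the other groups, and lens markers (8 genes) to 527 to 928 TPM in irises, 261 to 428 in explants and 3.85 to 12.1 in the others. In bulk samples, fewer cells of a type and less RNA per cell cannot be told apart. Explant 4 stood apart from the other explants for several members.

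Together the 10 mRNAs reached 7687 ± 1833 TPM in livers (mean ± SD, n = 3), 5227 ± 412 in hepatocyte preparations (n = 3), 5074 ± 48.6 in spheroids (n = 2), 2168 ± 701 in explants (n = 5) and 284 ± 46.4 in irises (n = 3). The make-up of this sum differed between groups. In livers, Saa1 and Saa2 were 21.6% to 37.8% of it. In hepatocyte preparations they were 7.17% to 12.4%, and in spheroids 1.58% to 2.38%. Hp was 26.3% to 36.9% of the sum in livers, 58.0% to 60.1% in spheroids and 46.9% to 76.0% in explants. Orm1 was 15.4% to 17.6% in livers, 21.5% to 26.2% in hepatocyte preparations and 2.38% to 3.91% in spheroids.

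**Figure D1:**
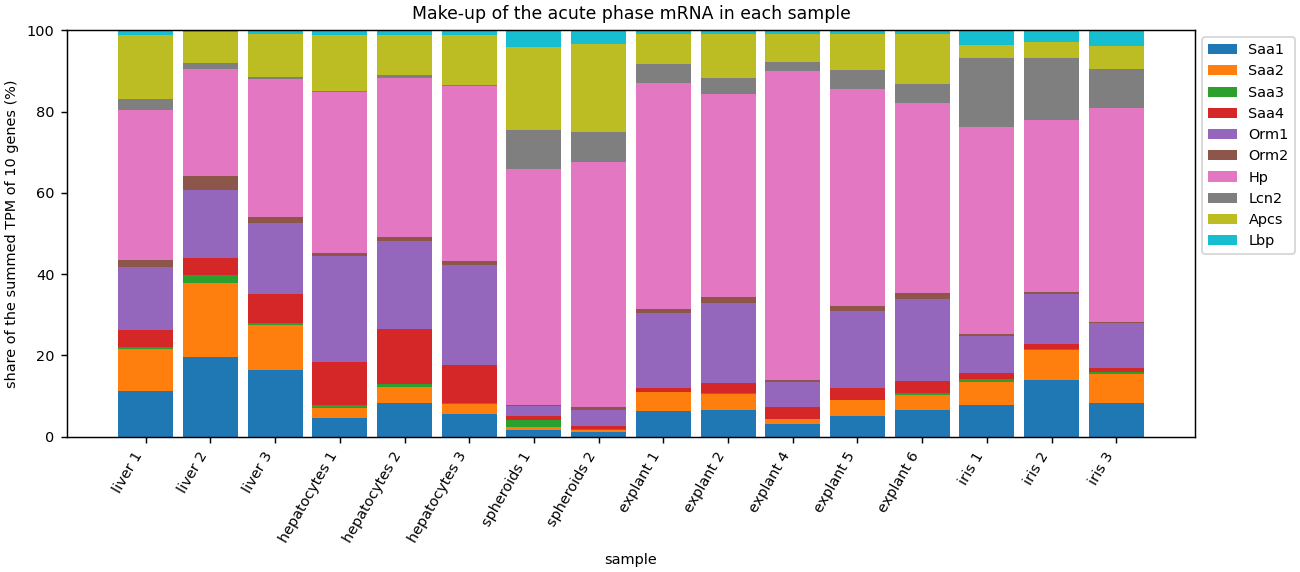
Share of each of the 10 mRNAs in their summed TPM (vertical axis, %), for each of the 16 samples (horizontal axis). Saa1 and Saa2 are a large part in the 3 livers and a small one in the 2 spheroid samples, where Hp and Apcs make up most of the sum.

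**Figure D2:**
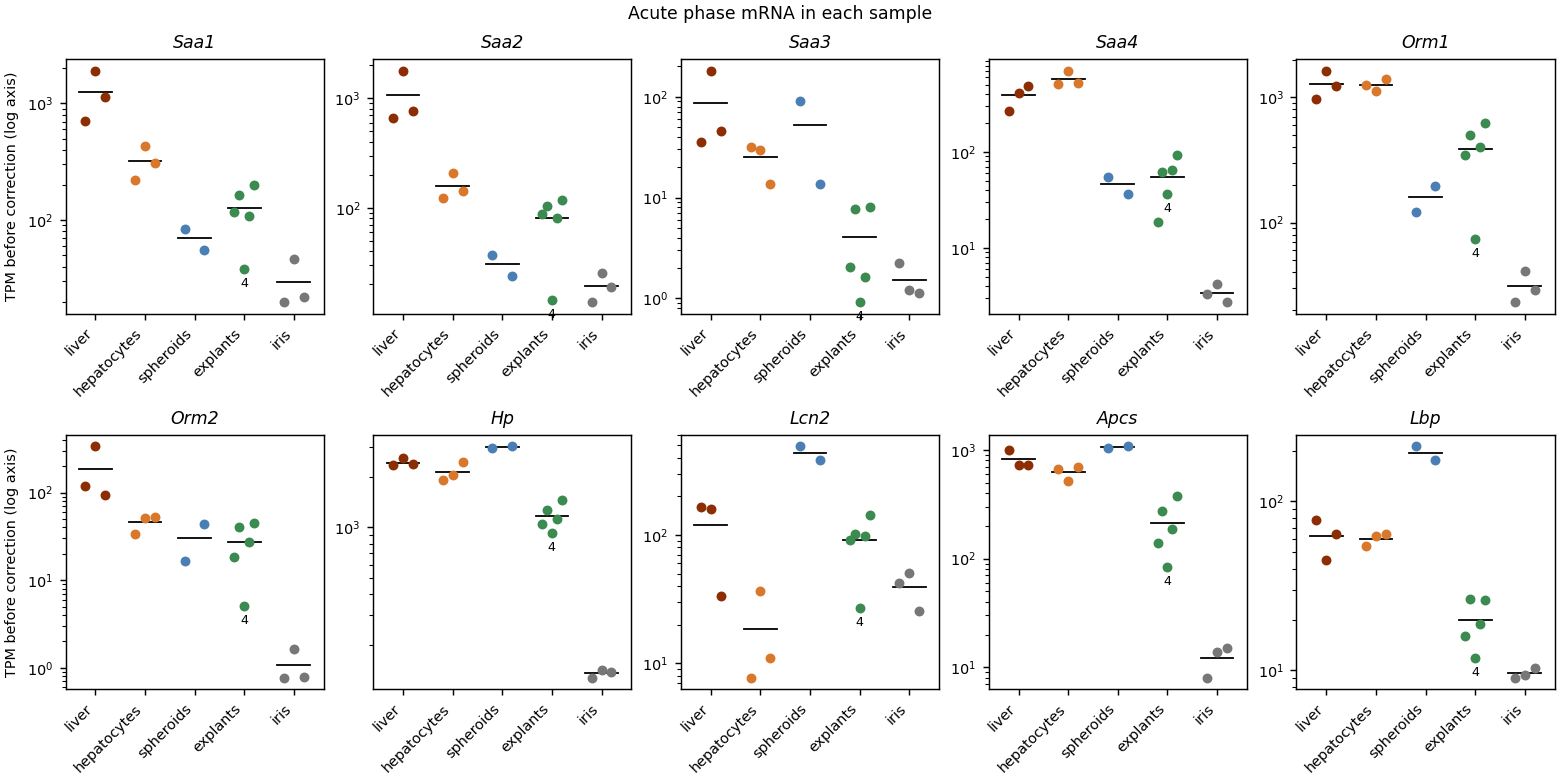
TPM of each gene before correction (vertical log axis) in every sample, with groups along the horizontal axis. Each point is a sample, the bar is the group mean, and the number 4 marks explant 4. Explant 4 lies below the other 4 explants for every gene except Saa4.

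Hepatocyte-enriched preparations were compared with livers to see which members kept their level after isolation. Saa1 and Saa2, the inducible amyloid A apolipoproteins of high density lipoprotein, fell. Hp, Orm1, Apcs and Lbp had log2 fold changes between -0.24 and 0.12, and none of these was called. Saa1 was at 714, 1912 and 1141 TPM in the 3 livers and at 222, 433 and 311 TPM in the 3 hepatocyte preparations. Saa2 was at 653, 1786 and 762 TPM in livers and at 124, 210 and 143 TPM in hepatocyte preparations. For both genes every preparation lay below every liver, and liver 2 was the highest. The log2 fold change was -1.84 ± 0.38 for Saa1 (SE, edgeR quasi-likelihood test, adjusted p = 0.0438) and -2.62 ± 0.42 for Saa2 (adjusted p = 0.0310). These 2 of 10 members were called lower, against 2.31% of all 12236 genes tested. The calls were narrow. With limma-voom both were lost (adjusted p = 0.0720 for Saa1 and 0.0676 for Saa2). Without liver 2, Saa1 had a log2 fold change of -1.37 (adjusted p = 0.0941), the Saa1 call was also lost without liver 3 or any 1 hepatocyte preparation (adjusted p = 0.0618 to 0.159), and the Saa2 call was lost without hepatocyte preparation 2 (adjusted p = 0.0974) or 3 (0.141).

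The remaining members were not called in this comparison. Orm2, the minor orosomucoid, was at 119.6, 337 and 92.7 TPM in livers and at 33.4, 51.3 and 52.2 TPM in hepatocyte preparations, with no overlap (log2 fold change -1.88 ± 0.50, edgeR adjusted p = 0.0752). Lcn2, which binds bacterial siderophores, was at 166, 159 and 33.7 TPM in livers and at 7.74, 36.7 and 11 TPM in preparations (log2 fold change -2.56 ± 0.69, adjusted p = 0.0765). Here the groups overlapped, through liver 3 and hepatocyte preparation 2. Neutrophil markers, of which the defining Ly6g was at 0 to 1.49 TPM in livers, were lower in the same direction, at 1.59 to 11.2 TPM against 26.3 to 40.9 TPM, and macrophage markers likewise (4 of 10 called lower), and their part in the Lcn2, Saa3 and Saa1 values was not tested. Saa3 had 35.4, 182 and 45.9 TPM in livers and 31.6, 29.9 and 13.55 TPM in preparations (log2 fold change -1.67 ± 0.67, adjusted p = 0.165). Saa4, the constitutive family member, lay the other way, with 269, 415 and 489.8 TPM in livers and 507, 707 and 525 TPM in preparations (0.70 ± 0.24, adjusted p = 0.122). Levels did not overlap between the groups for 6 of 10 members, and for 31.2% of all genes tested.

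**Figure D3:**
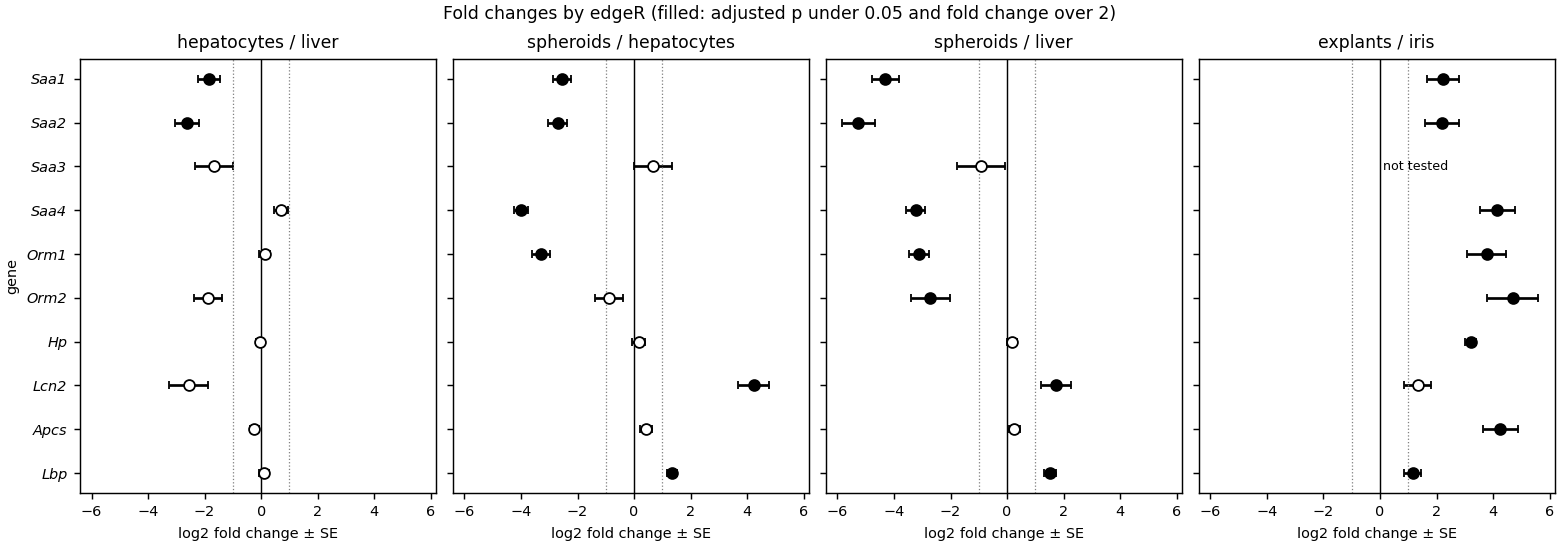
Log2 fold change with its standard error (horizontal axis) of each gene (vertical axis) in 4 comparisons, by edgeR. Filled points were called, and the dotted lines mark a log2 fold change of 1; Saa1, Saa2, Saa4 and Orm1 lie left of the line in spheroids, while Lcn2 and Lbp lie right of it.

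Spheroids in vitro were compared with the hepatocyte preparations they are grown from and with livers. Saa1, Saa2, Saa4 and Orm1 fell against both, Orm2 fell against livers, Lcn2 and Lbp rose against both, and Hp, Apcs and Saa3 were not called against either. Against hepatocyte preparations 4 of 10 members were called lower (9.11% of 12247 genes) and 2 higher (8.13%). Against livers 5 of 10 were called lower (11% of 12959 genes) and 2 higher (8.24%). Both comparisons use the same 2 spheroid samples. Of 12 hepatocyte markers, 5 were called lower against hepatocyte preparations and 4 against livers, and 0 higher in either. Their median log2 fold changes were -0.88 and -0.63, beside -0.37 and -1.82 for the 10 members. Levels did not overlap for 8 of 10 members against hepatocyte preparations (60% of all genes tested) and for 9 of 10 against livers (59.9%).

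Saa4 showed the largest fall among members against hepatocyte preparations. It was at 55.1 and 36.7 TPM in the 2 spheroid samples, against 507 to 707 TPM in hepatocyte preparations and 269 to 489.8 TPM in livers. The log2 fold changes were -4.00 ± 0.26 (edgeR adjusted p = 0.000139) and -3.23 ± 0.33 (adjusted p = 0.000934). Orm1, a plasma carrier of basic drugs, was at 122 and 197 TPM in spheroids, against 1121 to 1397 TPM and 974 to 1633 TPM (log2 fold changes -3.29 ± 0.32 and -3.11 ± 0.36, edgeR adjusted p = 0.000704 and 0.00135). Saa1 was at 84.2 and 55.9 TPM in spheroids and Saa2 at 37.4 and 23.7 TPM. Against hepatocyte preparations these were log2 fold changes of -2.54 ± 0.32 and -2.71 ± 0.33 (edgeR adjusted p = 0.00178 and 0.00152). Against livers they were -4.31 ± 0.48 and -5.26 ± 0.57 (edgeR adjusted p = 0.00127 and 0.00117). In all of these the groups were apart, and every call was kept when any 1 sample was left out.

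Lcn2 moved opposite to these. It was at 489.5 and 381 TPM in spheroids and at 7.74 to 36.7 TPM in hepatocyte preparations, a log2 fold change of 4.23 ± 0.54 (edgeR adjusted p = 0.00185). Against livers it was 1.74 ± 0.53 (adjusted p = 0.0402), a call lost without liver 2 (adjusted p = 0.0749) or without either spheroid sample (0.120 and 0.108), and under DESeq2 (0.0990). The 10 neutrophil markers summed to 0.446 and 0.499 TPM in spheroids, below each of the 3 hepatocyte preparations. The 10 macrophage markers summed to 492 to 613 TPM in spheroids, above the 147 to 250 TPM of the hepatocyte preparations (4 of 10 called higher), and their part in the Lcn2 and Lbp values was not tested. Lbp, which carries bacterial lipopolysaccharide to Cd14, was at 212 and 176 TPM in spheroids, 54.8 to 64.0 TPM in hepatocyte preparations and 45.2 to 77.6 TPM in livers. Its log2 fold changes were 1.35 ± 0.17 and 1.51 ± 0.22 (edgeR adjusted p = 0.00176 and 0.00298), and both calls were kept without any 1 sample.

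Hp, which binds free hemoglobin, was at 2962 and 3030.4 TPM in spheroids, 1913 to 2434 TPM in hepatocyte preparations and 2339.6 to 2574 TPM in livers. The log2 fold changes were 0.16 ± 0.24 and 0.18 ± 0.18, with edgeR adjusted p = 0.642 and 0.464. Apcs, a pentraxin, was at 1039.7 and 1082 TPM in spheroids, 514 to 698 TPM in hepatocyte preparations and 729 to 994 TPM in livers, with log2 fold changes of 0.43 ± 0.21 and 0.26 ± 0.19 (edgeR adjusted p = 0.173 and 0.322). On the TPM scale both genes were above every preparation and every liver. The 2 spheroid samples disagreed on Saa3, at 90.2 and 13.6 TPM, and on Orm2, at 16.7 and 43.6 TPM. Orm2 was lower than livers (-2.72 ± 0.69, adjusted p = 0.0214), a call lost without spheroid sample 1 (-2.12, adjusted p = 0.113). It was not called against hepatocyte preparations (-0.89 ± 0.49, adjusted p = 0.214), where it was called without spheroid sample 2 (-1.89, adjusted p = 0.0446).

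Naïve irises held little of these mRNAs. All 10 members were called lower in irises than in livers, against 22.1% of 15459 genes tested, and 9 of 10 did not overlap (84.4% of genes). All 12 hepatocyte markers were called lower there too. The iris mean was 0.585% of the liver mean for Orm2, 0.862% for Saa4 and 1.5% to 2.44% for Saa1, Saa2, Saa3, Orm1 and Apcs. It was 5.62% for Hp, 15.4% for Lbp and 33.1% for Lcn2. Lcn2 was at 42.3, 50.9 and 25.4 TPM in the 3 irises, which overlapped liver 3. Hepatocyte markers in irises were between 0.788% of the liver mean for Hnf4a and 8.53% for Cyp2e1.

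Explants were compared with naïve irises to see which members exceeded the level of iris tissue. Of 9 members tested, 8 were called higher, against 6.16% of 16764 genes. Of 12 hepatocyte markers, 11 were called higher, with a median log2 fold change of 3.82 beside 3.20 for the members. Saa3 was too low to be tested, with 0.919 to 8.10 TPM in explants and 1.14 to 2.26 TPM in irises. Levels did not overlap for 6 of the 9 (24.9% of all genes). Hp was at 1047, 1269.7, 925, 1125 and 1445 TPM in explants 1, 2, 4, 5 and 6, and at 128, 142 and 139 TPM in irises (log2 fold change 3.20 ± 0.20, edgeR adjusted p = 0.000118). Apcs was at 139, 273, 84.4, 188 and 380.1 TPM in the explants and at 8.03 to 15 TPM in irises (4.25 ± 0.62, adjusted p = 0.00265). Saa4 was at 18.4, 62.5, 36.8, 64.2 and 93.3 TPM in the explants and at 2.71 to 4.14 TPM in irises (4.15 ± 0.62, adjusted p = 0.00311). For these 3 genes all explants lay above all irises, and the calls were kept without any 1 sample.

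Orm1 was at 348, 496, 74.3, 399 and 624 TPM in explants 1, 2, 4, 5 and 6 and at 23.2 to 41.4 TPM in irises (3.77 ± 0.68, edgeR adjusted p = 0.00773). Orm2 was at 18.3, 40.9, 5.04, 27.1 and 44.4 TPM in the explants and at 0.774 to 1.66 TPM in irises, where it had 1 or 2 counts (4.70 ± 0.90, adjusted p = 0.0106). The call was lost without iris 1 for Orm1 (adjusted p = 0.0514) and Orm2 (0.0599) and without iris 3 for Orm2 (0.0607). Saa1 was at 118, 165, 37.9, 108 and 202 TPM in explants and at 19.8, 46.7 and 22.1 TPM in irises (2.23 ± 0.56, edgeR adjusted p = 0.0316). Saa2 was at 87.5, 103, 14.4, 80.0 and 118 TPM in explants and at 13.8, 25.3 and 18.9 TPM in irises (2.18 ± 0.61, adjusted p = 0.0467). For both, explant 4 lay among the irises and the other explants above them. Without explant 4 the log2 fold changes were 2.47 (adjusted p = 0.00383) for Saa1 and 2.46 (0.000799) for Saa2.

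The Saa1 call was lost without explant 2 (adjusted p = 0.0644) or 5 (0.0504) and without iris 1 (0.133), 2 (0.0593) or 3 (0.131). The Saa2 call was lost without explant 1, 2, 5 or 6 (0.0613 to 0.0886) or any 1 iris (0.116 to 0.168). Lbp was at 16, 26.4, 11.8, 18.7 and 26.1 TPM in explants and at 9.07 to 10.3 TPM in irises (1.16 ± 0.30, edgeR adjusted p = 0.0361). Its call was lost without explant 2, 5 or 6 (adjusted p = 0.0438 to 0.0697, the first with a fold change under the limit) or any 1 iris (0.111 to 0.134). Lcn2 was at 90.7, 101, 26.8, 98.3 and 142 TPM in explants and at 25.4 to 50.9 TPM in irises, and was not called (1.34 ± 0.48, adjusted p = 0.102). Without explant 4 it was called higher (1.58 ± 0.27, adjusted p = 0.00611). With limma-voom only Hp of the members was called. Macrophage markers were also higher in explants than in irises (5 of 10 called), and their part in the Lcn2 and Saa3 values was not tested.

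The authors subtract an iris contribution from each explant. Their formula takes the explant's TPM less the mean iris TPM times an iris fraction, divided by the remainder of the fraction. Values under 0 are set to 0 in the deposited table, and were here. The fractions that the deposited tables hold were 82% for explant 1, 68% for 2, 81% for 4, 72% for 5 and 59% for 6. In the deposited column of explant 4 only 16.5% of genes equal this formula, so the formula was applied to all 5 explants here. The subtraction takes the iris around a graft to have the levels of naïve iris, which was not tested. The part of an explant's TPM taken as iris was small for Saa4 (2.14% to 15.1%), Apcs (1.91% to 11.8%) and Hp (5.57% to 11.9%), and at most 34% for Orm1 and 17.2% for Orm2. It was larger for Lbp (21.7% to 65.8%), Saa1 (8.64% to 63.1%) and Saa3 (11.2% to 135%). For Lcn2 it was 16.4% to 35.8% in 4 explants and 119.6% in explant 4, where 26.8 TPM were measured and 32.04 TPM taken as iris. For Saa2 it was 9.62% to 18.1% in 4 explants and 109% in explant 4.

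**Figure D4:**
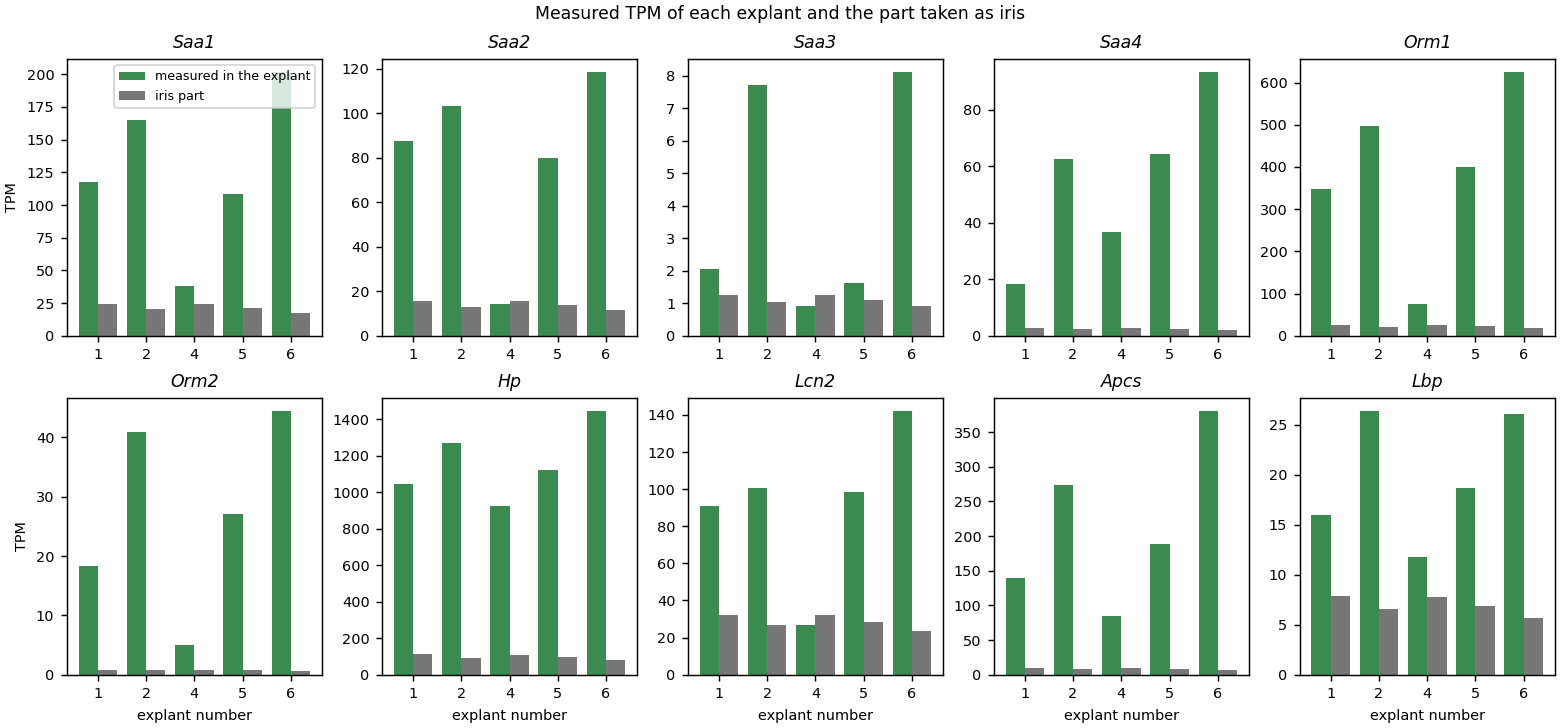
Measured TPM of each explant (green bars) and the part of it taken as iris (grey bars), on a linear axis from 0, with the explant number along the horizontal axis. In explant 4 the iris part is as high as or higher than the measured value for Saa2, Saa3 and Lcn2, and small for Saa4 and Hp.

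Corrected Hp was 4031 ± 736 TPM (mean ± SD, n = 5), Orm1 1271 ± 589, Apcs 697 ± 199, Saa1 361 ± 178, Saa2 235 ± 145 and Lcn2 219 ± 127. Saa4 was 179 ± 55.3, Orm2 89.0 ± 39.5, Lbp 44.1 ± 14.8 and Saa3 8.91 ± 9.58 TPM. Corrected explants were tested with limma on log2(TPM + 1), a scale that understates changes of low genes. The median of all genes tested was 0.57 against livers, 0.73 against hepatocyte preparations and 0.47 against spheroids, and the medians over the 10 members were -0.77, -0.14 and 0.94. Iris and ciliary markers kept medians of 0.84, 1.33 and 1.575 after correction. Of these 10 markers, 1, 2 and 2 were called higher, against 12.1%, 15.8% and 5.16% of all genes. What remains of iris in the corrected values of members and other genes was not tested. Without explant 4 the medians over members were -0.43, 0.38 and 1.13, so the sign against hepatocyte preparations rests on that 1 sample.

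**Figure D5:**
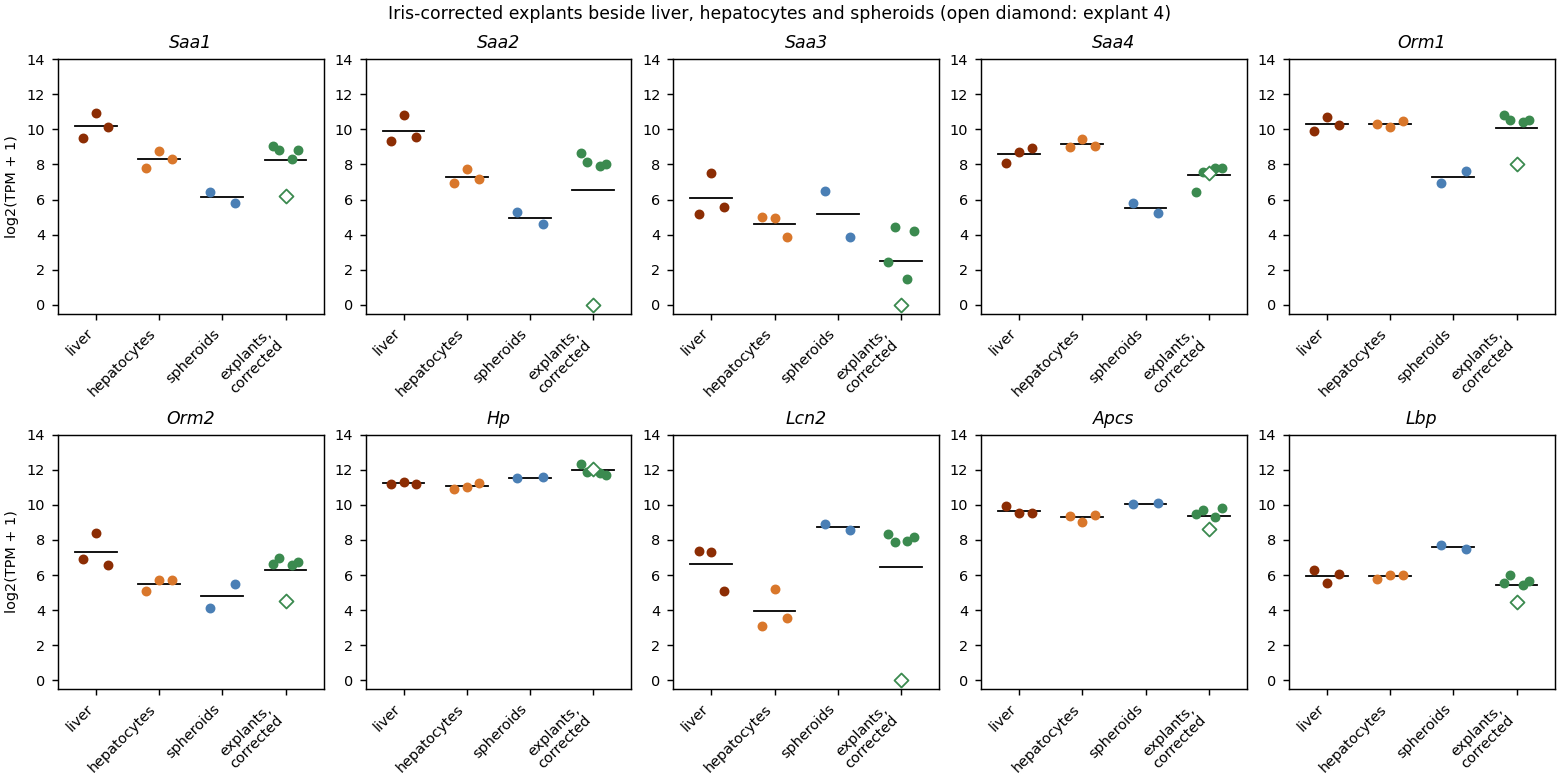
Log2(TPM + 1) of each gene (vertical axis) in livers, hepatocyte preparations, spheroids and corrected explants, with each sample a point and the group mean a bar. The open diamond is explant 4, which lies far below the other explants for Saa2 and Lcn2 and among them for Hp and Saa4.

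Against livers, 0 of 10 members were called with limma, where 15.3% of 20656 genes were (3.18% lower). At an unadjusted p under 0.05 there were 4, Saa1, Saa3, Saa4 and Hp. Saa1 had a log2 difference of -1.95 ± 0.63 (limma adjusted p = 0.0664), Saa2 -3.37 ± 1.82 (0.239), Saa3 -3.57 ± 1.06 (0.0510) and Saa4 -1.15 ± 0.34 (0.0521). All 5 corrected explants lay below all 3 livers for each of these, and members without overlap were 5 of 10, against 29.2% of genes. Without explant 4, Saa1 (-1.44 ± 0.33, adjusted p = 0.0243) and Saa2 (-1.74 ± 0.36, adjusted p = 0.0169) were called lower. Saa3 was called without explant 2 (adjusted p = 0.0339) or 6 (0.0345), and Saa4 without explant 6 (0.0463). Hp was higher in each explant than in any liver (0.72 ± 0.15, adjusted p = 0.0119) but under the fold change limit of 1. Before correction Hp lay the other way, at 925 to 1445 TPM in explants against 2339.6 to 2574 TPM in livers (-1.08, limma adjusted p = 0.000119), so its direction rests on the correction. Orm1 (-0.23 ± 0.58) and Apcs (-0.27 ± 0.27) overlapped the livers, with adjusted p of 0.797 and 0.511 by limma. Without explant 4, Orm1 turned to 0.28 ± 0.20 (adjusted p = 0.355) and Lcn2 from -0.14 to 1.48 ± 0.53 (adjusted p = 0.0975), neither of them called.

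Against hepatocyte preparations, Saa4 was the 1 member called (lower, with 3.41% of 20629 genes called lower and 15.8% higher). Corrected Saa4 was at 86.7, 188, 179, 221 and 223 TPM in explants 1, 2, 4, 5 and 6, all below the 507 to 707 TPM of the preparations (log2 difference -1.74 ± 0.32, limma adjusted p = 0.00539). The call was kept without any 1 sample. Groups were apart for 2 of 10 members, Saa4 and Hp, against 31.7% of genes. Hp was 0.91 ± 0.16 higher (adjusted p = 0.00405), under the fold change limit, and was past it without hepatocyte preparation 3 (1.01, adjusted p = 0.0119). Lcn2 was at 324, 231, 0, 249 and 289 TPM in corrected explants 1, 2, 4, 5 and 6 and was not called (2.49 ± 1.83, adjusted p = 0.356). Without explant 4 it was 4.11 ± 0.47 higher (adjusted p = 0.00105), and Orm2 was 1.21 ± 0.24 higher (adjusted p = 0.0105). Without it Saa2 also turned, from -0.74 to 0.89 ± 0.26 (adjusted p = 0.0438), under the fold change limit. The 4 explants other than explant 4 lay above the 7.74 to 36.7 TPM of the preparations. Macrophage markers were called higher in corrected explants for 9 of 10 genes, and their part in the Lcn2 value was not tested.

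Against spheroids, 1 member was called higher and 1 lower, with 5.16% and 1.09% of 20601 genes. Saa4 was higher (1.90 ± 0.42, limma adjusted p = 0.0362) and Lbp lower (-2.18 ± 0.43, adjusted p = 0.0254), both without overlap, which held for 6 of 10 members and 27.5% of genes. Corrected Saa4 thus lay between spheroids and hepatocyte preparations, clear of both. Corrected Lbp was at 45.2, 62.0, 21.3, 42.1 and 49.9 TPM in the explants against 212 and 176 TPM in spheroids. The Saa4 call was lost without explant 2, 4, 5 or 6 (adjusted p = 0.0596 to 0.0831) or either spheroid sample (0.159 and 0.357). With the values as deposited both calls were lost (adjusted p = 0.115 for Saa4 and 0.123 for Lbp), and before correction Saa4 had a difference of 0.09 (adjusted p = 0.891). The Lbp call was lost without explant 5 (0.0583) or either spheroid sample (0.220 and 0.183). Orm1 was 2.77 ± 0.71 higher with no overlap, though not called (adjusted p = 0.0628). Without explant 4, Saa1 (2.62, adjusted p = 0.00592), Saa2 (3.23, adjusted p = 0.00415), Orm1 (3.28, adjusted p = 0.00182) and Orm2 (1.92, adjusted p = 0.0443) were called higher, and Lcn2 went from -2.29 to -0.67 (adjusted p = 0.156).

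Explant 4 decided several of these results. It was singled out by its values of these same members, so calls made without explant 4 show sensitivity and are not further tests. Corrected Orm1 was 258 TPM in it and 1345 to 1789 TPM in the other 4. Corrected Saa1 was 73.6 TPM against 311 to 520.3 TPM, and Orm2 21.9 TPM against 94.0 to 126 TPM. Saa2, Lcn2 and Saa3 were at 0 in explant 4, from 18, 144 and 1 counts before correction. Apcs (392 against 639 to 909 TPM) and Lbp (21.3 against 42.1 to 62.0 TPM) were also lowest there. Hp (4289 against 3327 to 5192 TPM) and Saa4 (179 against 86.7 to 223 TPM) were within the range of the others. Explant 4 was not the lowest in summed hepatocyte markers, at 2229 TPM against 1506 in explant 1. Its macrophage markers summed to 951 TPM, the lowest of the 5 (1239 to 2889 TPM in the others), and its iris fraction of 81% was close to the 82% of explant 1. Whether these move the members was not tested.

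The order of group levels differed between members when corrected explants stand for the graft. Saa1 and Saa2 ran from liver to corrected explants, hepatocyte preparations, spheroids and iris, with livers clear of the next group and corrected explants overlapping hepatocyte preparations. Spheroids were clear of irises for Saa1 and overlapped them for Saa2. Saa4 ran from hepatocyte preparations (580 ± 111 TPM, n = 3) to livers (391 ± 112), corrected explants, spheroids (45.9 ± 13, n = 2) and irises (3.38 ± 0.72), each clear of the next. Lcn2 was highest in spheroids (435 ± 76.5 TPM) and lowest in hepatocyte preparations (18.5 ± 15.8), which overlapped irises (39.6 ± 13). Lbp and Apcs were highest in spheroids too, clear of the next group. Orm1 did not separate livers, corrected explants and hepatocyte preparations, whose means of 1276, 1271 and 1260.2 TPM lay within their spread. Without explant 4 the mean of corrected Orm1 was 1524 ± 188 TPM (SD, n = 4).

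The paralogs were read with care, since reads that map to several places were not counted. Transcripts of Saa1 and Saa2 are 93.9% identical and share 13.2% of 50-base windows, and those of Orm1 and Orm2 are 91.0% identical and share 20.4%. The split between paralogs is therefore uncertain. The Saa1 to Saa2 ratio of TPM was 1.07 to 1.5 in livers, 1.79 to 2.17 in hepatocyte preparations, 2.25 and 2.35 in spheroids and 1.35 to 2.63 in explants. The highest of these, in explant 4, comes from 47 and 18 counts. The Orm1 to Orm2 ratio was 4.85 to 13.2 in livers, 21.9 to 37.8 in hepatocyte preparations, 4.52 and 7.29 in spheroids and 12.1 to 19 in explants. In both pairs livers and hepatocyte preparations did not overlap.

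Where duplicate reads are removed by position, counts of short abundant mRNAs can reach a ceiling. Whether this happened here was not tested, and how molecular identifiers entered the removal is not given in the sources used here. No gene of at least 500 bases exceeded 1.70 counts per base in a library. Hp reached 1.34 in spheroids, and Saa1 0.972 and Saa2 0.925 in livers, near the top of that range. With an assumed upper limit of 1.8 read starts per base undone, hepatocyte preparations against livers gave -2.14 for Saa1 and -2.93 for Saa2, still called (edgeR adjusted p = 0.0447 and 0.0337). Hp in explants against irises moved from 3.20 to 3.59, and Hp in irises against livers from -5.04 to -5.73. In corrected explants Hp moved from 0.72 to 0.50 against livers and from 0.41 to 0.07 against spheroids.

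Other genes of the response gave a frame for these values. Of 22 other positive acute phase genes, such as the fibrinogen chains and Serpina3n, 15 of 21 tested were called higher in explants than in irises, with Serpina10 (5.32 ± 0.51 on the log2 scale), Itih3 (5.01 ± 0.36) and C3 (4.67 ± 0.37) leading. Their median was 3.36, against 3.20 for the members tested and 0.01 for all genes. In hepatocyte preparations against livers 0 of 21 were called by edgeR (6 at an unadjusted p under 0.05), with a median of 0.05 beside -0.95 for the 10 members. In spheroids against hepatocyte preparations (8.13% of all genes called higher and 9.11% lower) 2 were higher, Cd14 (3.84 ± 0.52), the partner of Lbp, and the metallothionein Mt2 (1.85 ± 0.55). In that comparison 1 was lower, Hamp (-4.21 ± 0.25), which encodes hepcidin. The fibrinogen genes, C3 and Crp were not called there. In corrected explants against livers 2 of 22 were higher, Cd14 (3.70 ± 0.49) and the interleukin 1 receptor antagonist Il1rn (2.61 ± 0.67), no larger a share than the 12.1% of all genes. Both are also genes of myeloid cells, and 7 of 10 macrophage markers were called higher in that comparison. Their part in these values, and in those of the next paragraphs, was not tested.

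Negative acute phase genes, which fall in the response, had 0 of 10 calls in hepatocyte preparations against livers with edgeR and 0 of 10 in corrected explants against livers with limma, where 3 and 8 had an unadjusted p under 0.05. Their median log2 differences were 0.24 and 0.42. Of all genes, 0.409% were called higher and 2.31% lower in the first comparison, and 12.1% and 3.18% in the second. In spheroids 2 of the 10 negative acute phase genes were lower than in hepatocyte preparations, where 9.11% of all genes were. These were Serpina6 (-4.71 ± 0.34), the cortisol-binding globulin, and Igf1 (-3.62 ± 0.47). Serpina6 was 4.82 ± 0.32 higher in corrected explants than in spheroids. Alb, Ahsg and Trf were not called in these comparisons.

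Genes of cytokine signaling to the acute phase were read in the same way. Socs3, a target and brake of STAT3 signaling, had the 1 call among 19 tested of 24 cytokine signaling genes in hepatocyte preparations against livers, with 4.38 ± 0.40 higher (edgeR adjusted p = 0.00445), where 0.409% of all genes were called higher. Its mean was 179 TPM in hepatocyte preparations, 9.49 in livers and 5.31 in spheroids. In spheroids against hepatocyte preparations 5 of 21 were lower (9.11% of all genes), Il1b, Socs3, Lifr, Cebpa and Il1rap, and Osmr, the oncostatin M receptor, was 3.88 ± 0.47 higher. Cebpa, the hepatocyte C/EBP factor, was -2.70 ± 0.26 there and -2.04 ± 0.29 in corrected explants against livers. In the latter comparison 8 of 23 were higher, with Osmr (3.56 ± 0.54), Socs3 (3.50 ± 0.47) and Tnf (3.36 ± 0.50) leading, and 5 lower, against 12.1% and 3.18% of all genes. Macrophage markers, whose cells also make Tnf, were higher there too (7 of 10 called). Il6 mRNA itself had 0 counts in all livers, hepatocyte preparations and spheroids and 0 to 2 counts per sample in explants and irises.

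Among partners and receptors, Tlr2 and Tlr4, the Toll-like receptors of bacterial lipoprotein and lipopolysaccharide, were called higher in corrected explants than in livers (3.71 ± 0.34 and 3.31 ± 0.48), as were the lipocalin 2 receptor Slc22a17 and Hmox1 (4 of 10 in all, against 12.1% of all genes). Tlr2, Tlr4 and Hmox1 are also made by macrophages, whose markers rose there for 7 of 10 genes. In spheroids against hepatocyte preparations 4 of 8 tested were higher (8.13% of all genes), Tlr2, Cd163, which takes up haptoglobin with hemoglobin, Cd36 and Hmox1, and Lrp1 was lower (-2.49 ± 0.30). Slc22a17 had a mean of 169.5 TPM in irises and 1.6 TPM in livers, so its corrected value rests on a large subtraction.

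Likeness of pattern was measured as Pearson's r of log2(TPM + 1) before correction over the 16 samples, among 19450 genes, and is a description, since the 8 samples that contain iris share it. Saa1 and Saa2 were each other's nearest gene (r = 0.98), followed by Csk and Rrbp1. Hp was nearest to Hpx, Itih3 and Gc (0.997 to 0.998), all plasma proteins of hepatocytes, and Apcs to Cyp2a12 and Arg1 (0.99). Saa4 was nearest to Cyp4f14 (0.995) and Hsd3b3 (0.988), and Orm1 to Cyp2j5, AW112010 and Pigr (0.97). Orm2 had Cdhr5, Fgl1 and AW112010 (0.93 to 0.94), Lbp Gm26809, Pter and Cmpk1 (0.98) and Saa3 Rbfa, Prg4 and 2900026A02Rik (0.94). Lcn2 had the least similar neighbours, 9530034E10Rik, Tmem214 and Nol8 (0.85 to 0.86).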

How the data were processed

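RNA of 16 samples (48 libraries, 3 technical libraries per sample) was prepared by Smart-seq3. The authors aligned reads to GRCm38 (mm10) with TopHat2, removed duplicates with UMI-tools and SAMtools, and counted reads on exons with featureCounts 1.4.6-p5, ignoring strand and leaving out multi-mapped reads. The deposited counts per sample equal the sum of the technical libraries, and the deposited TPM are the authors' counts per length and depth. In the deposited corrected values of explants, a signal in units of TPM, the authors subtracted an iris contribution. The paper's reporting lists another albino strain than the labels.

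Counts were tested here by the quasi-likelihood F-test of edgeR 4.0.16 under R 4.3.3, after filterByExpr and TMM scaling, each comparison on its own groups. Corrected explants were tested with limma 3.58.1 (trend) on log2(TPM + 1). A call required an adjusted p (Benjamini-Hochberg, all genes tested) under 0.05 with a log2 fold change above 1 in size. Overlap between groups was read on TPM. Named genes are the 10 members, genes of 9 fixed lists with up to 4 leading calls each, and the 3 genes nearest to each member, of which some are not reported here. The members and lists were chosen with earlier results of these data known. Scripts were tested on simulated data. Alternatives were DESeq2 1.42.0, limma-voom, RLE factors, library size alone, no filter, a single fit, no fold change limit, a replicate block, technical libraries a alone, undoing an assumed ceiling on read starts of 1.8 or 2 per base, a pseudocount of 0.1, leaving out genes with a mean under 10 TPM, uncorrected TPM, values as deposited, the iris fraction by non-negative least squares and each sample left out in turn. Promoters are from RefSeq (GRCm38.p6) and transcripts from GENCODE M21, aligned with Biopython 1.88. Figures were drawn with matplotlib 3.10.9 in Python 3.11.15. A count table whose rows carry no gene identifier was not used.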

Additional observations from a re-analysis of the deposited data

Results flagged for a closer look

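Lcn2 in corrected explants was the 1 outlier among 20 sets of 5 explant values, 10 genes each before and after correction, by Dixon's test at the 95% level (0.71 for 5 samples). Explant 4 was at 0 TPM, and its gap to the next explant was 0.714 of the whole range. Chance flags about 1 in 20 sets. Lcn2 in explant 4 was at 26.8 TPM before correction, within the 25.4 to 50.9 TPM of naïve irises.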

How the results depend on the processing

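Over 1330 values of single genes under the alternatives, 1197 kept their direction and their side of the threshold, 59 lost a call, 42 gained one and 32 changed sign. In no alternative did a member called in the reported fits change sign. Hp in explants against livers, not called there, was called higher with no fold change limit and lower before correction. The count of members called did not change in spheroids against hepatocyte preparations or irises against livers beyond 1.5 times.

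Before correction, explants were called against livers for 9 of 10 members lower, against hepatocyte preparations for 6 lower and 1 higher, and against spheroids for 5 lower and 0 higher. Of all genes, 1617 of 20663 were called lower and 7416 higher against livers. Against hepatocyte preparations 1477 of 20640 were lower and 8700 higher, and against spheroids 1202 of 20609 were lower and 6433 higher. Uncorrected explants include iris, where all 10 members were called lower than in livers, and its part in these calls was not tested. Before correction Hp reversed to -1.08, -0.88 and -1.38 against livers, hepatocyte preparations and spheroids. Apcs reversed to -1.73 and Orm2 to -1.002 against hepatocyte preparations, and Orm2 to -0.30 against spheroids. With the deposited column of explant 4, 0 were called higher and 0 lower against spheroids. With the fraction by least squares, 1 was higher against hepatocyte preparations, and Saa1 reversed to 0.081. With no fold change limit 1 was higher against both livers and hepatocyte preparations. With a mean of at least 10 TPM, 2 were lower against livers. With limma-voom, 1 was higher in explants against irises and 0 lower in hepatocyte preparations against livers, where 5 were lower without a filter. With DESeq2, 1 was higher in spheroids against livers. In hepatocyte preparations against livers Hp was 0.012 in the single fit, and Lbp was -0.021 with library size alone and -0.011 in technical libraries a alone.

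Left out in turn, single samples gave 3 to 9 members higher in explants against irises and 0 to 2 lower in hepatocyte preparations against livers. Against spheroids, corrected explants had 0 to 4 higher and 0 to 1 lower, against hepatocyte preparations 0 to 2 higher, and against livers 0 to 2 lower. Spheroids against livers had 1 to 2 higher. The log2 fold change in corrected explants against hepatocyte preparations ran Apcs from -0.0283 to 0.302, Orm1 from -0.425 to 0.272, Saa1 from -0.289 to 0.455, Saa2 from -1.27 to 0.891. The log2 fold change in corrected explants against livers ran Lcn2 from -0.881 to 1.48, Orm1 from -0.417 to 0.281. The log2 fold change in hepatocyte preparations against livers ran Hp from -0.167 to 0.0381, Lbp from -0.0706 to 0.241, Orm1 from -0.0762 to 0.36. The log2 fold change in in vitro spheroids against hepatocyte preparations ran Saa3 from -1.08 to 1.38. The log2 fold change in in vitro spheroids against livers ran Saa3 from -2.73 to 0.191.

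Library size alone moved the median of all genes by 0.68 in irises against livers and by 0.26 in spheroids against hepatocyte preparations, and calls of higher genes from 57.4% to 77.5% and from 47.2% to 65.5% of all calls. Over the alternatives, the count of all genes called was 583 to 1975 in explants against irises beside 1085 reported, 8 to 1205 in hepatocyte preparations against livers beside 333 reported, 1719 to 3894 in in vitro spheroids against livers beside 2492 reported, 0 to 9033 in corrected explants against livers beside 3152 reported, 0 to 10177 in corrected explants against hepatocyte preparations beside 3969 reported, 0 to 7635 in corrected explants against in vitro spheroids beside 1288 reported. The cause was not tested.

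Same-numbered samples did not deviate together (correlations -0.12 to 0.119), and the reported fits did not pair them. With so few samples per group, this check cannot exclude that samples of the same number share a donor. With a replicate block, which leaves samples 1 and 2 of the explants, 0 members were called against hepatocyte preparations and spheroids in either direction. Of all genes, 0 of 20629 and 0 of 20601 were called there, so these lost calls say nothing of the members. Saa1, Saa2 and Orm1 reversed to 0.64, 1.05 and 0.45 against hepatocyte preparations, and Lcn2 and Orm1 to 0.75 and 0.37 against livers. Under the block Lcn2 was called higher in explants against irises (1.12) and lower in hepatocyte preparations against livers (-2.56).

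Counts of 1 or 2 per sample for Orm2 in irises, and of 1 for Saa3 and 18 for Saa2 in explant 4, limit what those values can show. With 2 spheroid samples the spread is poorly known. TPM depend on what else is in the sample.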
